A study of Homo sapiens with 4 samples.

Results

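The miR-106b-25 cluster is a group of 3 microRNA hairpins inside the MCM7 gene, and miR-106a-5p is an X-linked relative of 1 of its members. Here hsa-miR-106b-5p, hsa-miR-93-5p, hsa-miR-25-3p and hsa-miR-106a-5p (prefix dropped from here on) were taken by name, 4 of the 1096 entries in the deposited table. Small RNA was sequenced from PC-3 cells, an androgen-independent human prostate cancer line from a bone metastasis, to find miRNAs that differ under apelin, a peptide ligand of the APJ receptor. The 2 control libraries came from untreated cells and the 2 apelin libraries from cells given apelin at 10 µg/mL for 24 h, and all cells grew in DMEM with serum. A number in a library's name is the replicate number of its title. Nothing in the labels tells whether replicates were grown apart, so p-values reflect the spread of these libraries alone, part or all of which may be technical.

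A miRNA guides an Argonaute protein to messenger RNAs that pair with its seed, bases 2 to 8 from its 5′ end. miR-106b-5p and miR-93-5p share the seed of miR-17-5p and repress the cell cycle inhibitor p21 (CDKN1A), while miR-25-3p shares the seed of miR-92a-3p and represses the pro-apoptotic protein Bim (BCL2L11). MCM7, the host gene, encodes a subunit of the helicase that licenses DNA replication, and E2F factors and MYC drive it. The cluster is known as an oncogenic one in prostate cancer.

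The mature sequences are shown because the comparison turns on which members share a seed and how little the others differ. They are from RefSeq (GRCh38.p14), with the seed in capitals.
miR-106b-5p: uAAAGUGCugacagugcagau
miR-93-5p: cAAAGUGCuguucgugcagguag
miR-106a-5p: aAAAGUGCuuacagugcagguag
miR-17-5p: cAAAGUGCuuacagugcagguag
miR-20a-5p: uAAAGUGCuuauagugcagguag
miR-25-3p: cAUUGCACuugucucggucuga
miR-92a-3p: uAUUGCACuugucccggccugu
The first 5 carry the seed AAAGUGC and the last 2 AUUGCAC. Compared base by base from the 5′ end, miR-106b-5p and miR-93-5p matched at 16 of 21 positions (U1C, A11U, C12U, A13C and A20G, with the base of miR-106b-5p first). miR-106b-5p matched miR-106a-5p at 18 of 21 (U1A, G10U and A20G). miR-106a-5p differed from miR-17-5p at 1 of 23 positions, the first base (A1C). miR-25-3p matched miR-92a-3p at 18 of 22 positions.

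The 3 hosted hairpins lie on chromosome 7, minus strand, within 515 nt (GRCh38, GENCODE release 29). MIR106B (100093993 to 100094074) comes first in the direction of transcription, then MIR93 (100093768 to 100093847) and MIR25 (100093560 to 100093643) last. All are in intron 13 of a 15-exon MCM7 transcript, and intronic in all 8 MCM7 transcripts that span them. MIR106A lies on chromosome X (134170198 to 134170278, minus strand), within an exon of the noncoding transcript AC002407.1. The hairpins below show which arm was counted, in capitals.
MIR106B: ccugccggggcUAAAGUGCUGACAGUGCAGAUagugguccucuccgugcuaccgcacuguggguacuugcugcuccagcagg
MIR25: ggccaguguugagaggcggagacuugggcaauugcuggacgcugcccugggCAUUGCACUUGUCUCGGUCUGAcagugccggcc
MIR106A: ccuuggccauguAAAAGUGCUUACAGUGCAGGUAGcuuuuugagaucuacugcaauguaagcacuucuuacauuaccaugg
The counted arm was the 5′ one for MIR106B and MIR106A and the 3′ one for MIR25. The opposite arms of the 4 hairpins were not analysed here.

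The libraries held 5322429 to 6014838 counts, and the 4 members together took 0.928% to 1.03% of them. A count of 0 would allow up to 0.499 to 0.564 TPM (3 counts), which covers counting error only. TPM here means counts per 1000000 of the library total, with no division by length. Of 14 miRNA markers of other cell types 8 were in the table, and their summed level was 349 to 351 TPM in controls and apelin 1 and 446 TPM in apelin 2. Most of it was miR-9-5p (298 to 399 TPM), while the liver marker miR-122-5p and the white cell marker miR-223-3p were under 5 TPM in every library. Of the 4 epithelial markers 3 were in the table: miR-200c-3p, miR-205-5p and miR-203a-3p. Their sum was lower with apelin, at 129.7 and 131 TPM in controls and 107 and 95.2 TPM in apelin 1 and 2. For miR-200c-3p and miR-205-5p the edgeR adjusted p was 0.627. Outside this list directions were mixed. miR-200a-3p was higher with apelin (906 and 903 TPM in controls, 929 and 1216 TPM in apelin 1 and 2). miR-200b-3p was lower (6671 and 6915 TPM in controls, 6488 and 6467 TPM in apelin 1 and 2). The red cell marker miR-486-5p was lower with apelin, at 35.7 and 37.1 TPM in controls and 33.8 and 28.2 TPM in apelin 1 and 2. Its edgeR adjusted p was 0.688, and 17.5% of tested entries were lower in both apelin libraries than in both controls. miR-9-5p was higher in apelin 2 only, at 298 and 299 TPM in controls and 300 and 399 TPM in apelin 1 and 2. Apelin 1 barely exceeded the controls. The edgeR adjusted p of miR-9-5p was 0.688, and 20.9% of tested entries were higher in both apelin libraries than in both controls. The part of these differences in the members' values was not tested. In bulk samples fewer cells with a miRNA and less of it per cell cannot be told apart.

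The members of the cluster were far from equal in level, and their order was the same in the 4 libraries. On the TPM scale miR-93-5p was highest (4357 to 5653), followed by miR-25-3p (3616 to 3857), miR-106b-5p (801 to 1226) and miR-106a-5p (12.1 to 23.1). By mean TPM they ranked 37, 43, 65 and 193 among the 516 catalogue miRNAs. Per nt of listed length the order was unchanged, with mean levels of 225, 170, 47.4 and 0.912 TPM per nt. The closest neighbours were miR-93-5p and miR-25-3p, whose TPM ratio ran from 1.19 to 1.47. miR-106b-5p exceeded miR-106a-5p 41.7 to 66.0 times. The ranges of neighbours in this order, over the 4 libraries, did not overlap.

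Within the MCM7 cluster the first hairpin's product lay higher with apelin and the middle one's lower. Both carry the same seed, and neither difference passed the edgeR test. miR-106b-5p stood at 801 and 936 TPM in controls 1 and 2, and at 1017 and 1226 TPM in apelin 1 and 2. Both apelin libraries lay above both controls, with apelin 2 highest. Control libraries averaged 868 ± 95.4 TPM (SD, n = 2), and apelin ones 1121 ± 148 TPM (SD, n = 2). On the log2 scale the fitted difference was 0.40 (SE 0.18, edgeR adjusted p = 0.627), and 0.15 without apelin 2.

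miR-93-5p stood at 5653 and 5538 TPM in controls 1 and 2, and at 5195 and 4357 TPM in apelin 1 and 2. Both apelin libraries lay below both controls, and apelin 2 was again the farthest. The means were 5596 ± 81.4 TPM (SD, n = 2) and 4776 ± 593 TPM (SD, n = 2), so the apelin libraries differed far more among themselves than the controls did. The fitted log2 fold change came to -0.21 (SE 0.11, edgeR adjusted p = 0.627).

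miR-25-3p, the last hairpin of the cluster, varied least. It stood at 3857 and 3834 TPM in controls 1 and 2, and at 3616 and 3672 TPM in apelin 1 and 2. The groups did not overlap in TPM, but they did after the scaling used by the test, where apelin 2 was at 3811 and control 2 at 3705 TPM. The means were 3846 ± 16.0 TPM (SD, n = 2) and 3644 ± 39.8 TPM (SD, n = 2). The fitted log2 fold change came to -0.057 (SE 0.091, edgeR adjusted p = 0.848), or -0.17 without apelin 2 and -0.019 without apelin 1.

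miR-106a-5p, the X-linked paralog, was near the lower limit of what was tested, a mean of 10 TPM. It had 73 and 127 counts in controls 1 and 2, and 123 and 129 counts in apelin 1 and 2. In TPM these were 12.1 (95% Wilson interval 9.65 to 15.3), 22.4 (18.9 to 26.7), 23.1 (19.4 to 27.6) and 22.6 (19.04 to 26.9). Control 1 alone was low, and the intervals of the other 3 libraries overlapped. The fitted log2 fold change came to 0.44 (SE 0.39, edgeR adjusted p = 0.688). It rested on control 1, being 0.057 without that library and 0.88 without control 2.

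**Figure D1:**
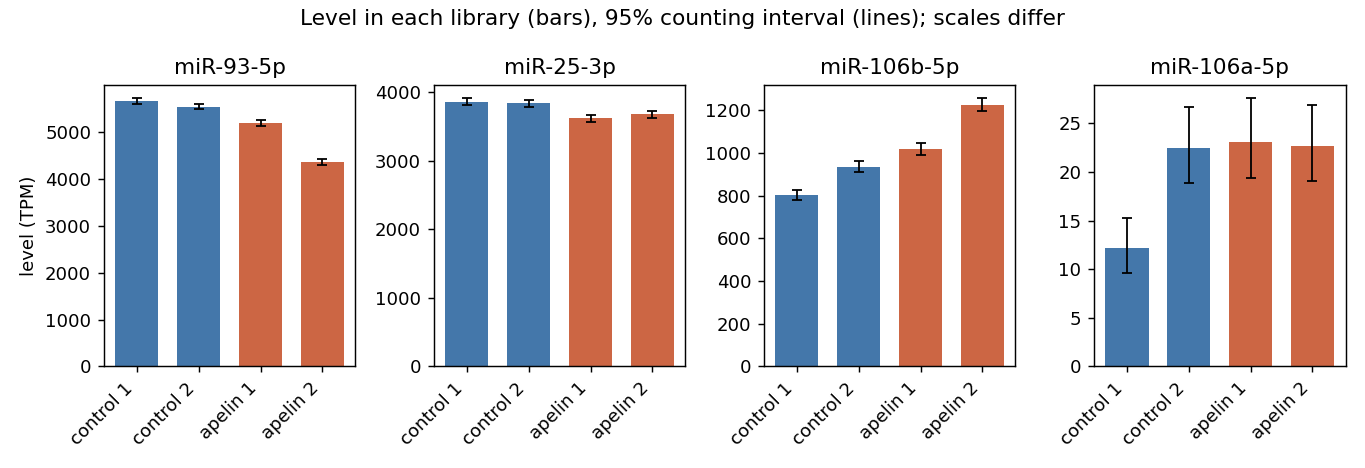
Level in TPM of each member (panels, each with its own axis from 0) in each of the 4 libraries (bars), with 95% Wilson intervals for counting error (lines). Apelin bars are above control bars for miR-106b-5p (highest 1226 TPM) and below them for miR-93-5p (lowest 4357 TPM), while for miR-106a-5p control 1 alone is low at 12.1 TPM.

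Of the 4 members 0 were called by edgeR, as were 0 of the 263 tested entries (0%), while 15 entries and 0 members had an unadjusted p under 0.05. DESeq2 called 53 entries (20.2%) and 0 members, with miR-93-5p nearest at an adjusted p = 0.0929 and miR-106b-5p at 0.212. In TPM both apelin libraries exceeded both controls for 2 members, as for 20.9% of tested entries, and were under both for the other 2, as for 17.5%. Entries on either side made up 38.4% of those tested.

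Ratios within a library do not depend on its scaling, and they set the members against each other directly. The level of miR-106b-5p was 14.2% and 16.9% of that of miR-93-5p in controls 1 and 2, and 19.6% and 28.1% in apelin 1 and 2. Each apelin library was above each control. The mean log2 ratio was -2.69 ± 0.18 (SD, n = 2) for control libraries and -2.09 ± 0.37 (SD, n = 2) for apelin ones. The difference of 0.60 corresponds to a ratio 1.52 times as high (exact permutation test, two-sided, p = 0.333, adjusted p = 0.400 over 6 ratios). With 2 libraries against 2 this test cannot give a p under 0.333. The difference was 0.34 without apelin 2 and 0.86 without apelin 1.

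Against miR-25-3p, the level of miR-106b-5p showed the same order of libraries. It stood at 20.8% and 24.4% of miR-25-3p in controls 1 and 2, and at 28.1% and 33.4% in apelin 1 and 2. The difference in log2 ratio was 0.44 (exact permutation p = 0.333, adjusted p = 0.400). miR-93-5p and miR-25-3p, by contrast, kept nearly the same ratio in 3 libraries. miR-93-5p was 1.47 and 1.44 times miR-25-3p in controls 1 and 2, 1.44 times in apelin 1 and 1.19 times in apelin 2. The difference in log2 ratio of -0.16 came from apelin 2 and was -0.018 without it (exact permutation p = 0.333 with all libraries).

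The paralog was compared with each hosted member in the same way. miR-106a-5p was 1.52% and 2.40% of miR-106b-5p in controls 1 and 2, and 2.27% and 1.85% in apelin 1 and 2. The groups overlapped, and the difference in log2 ratio of 0.10 (exact permutation p = 1) became -0.23 without control 1 and -0.046 without apelin 1. Against miR-93-5p the paralog stood at 0.215% and 0.405% in controls and at 0.445% and 0.519% with apelin. That difference of 0.71 in log2 ratio was 0.25 without control 1 and 1.16 without control 2 (exact permutation p = 0.333). Against miR-25-3p it was 0.55 (exact permutation p = 0.333), and 0.10 without control 1 and 1.00 without control 2. The groups did not overlap for 5 of the 6 ratios, against 43.2% of the 21321 ratios between any 2 of the 207 tested catalogue miRNAs with counts in every library, and the 6 ratios share their members.

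**Figure D2:**
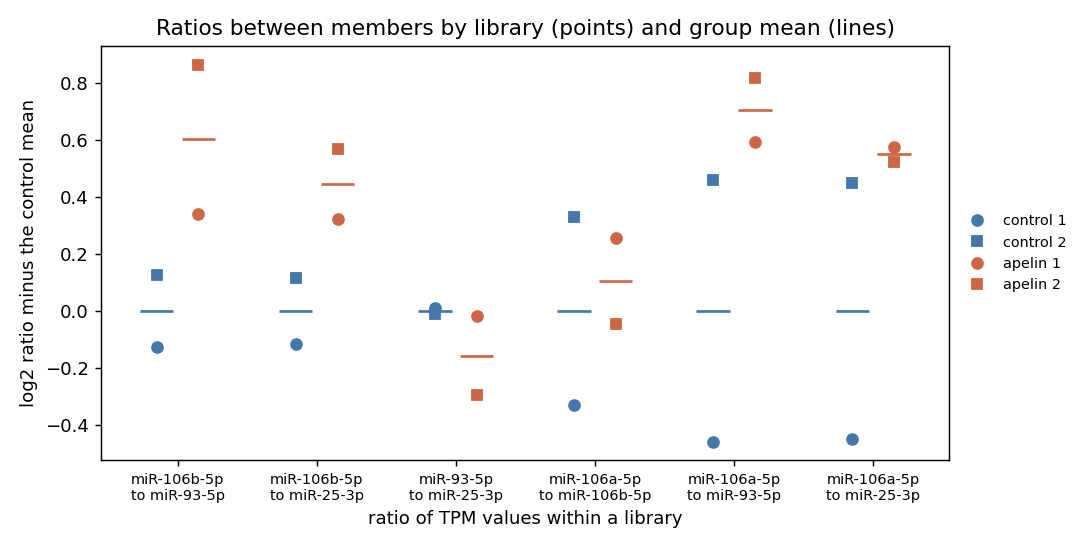
Log2 ratio of the TPM values of 2 members in each library (circles replicate 1, squares replicate 2), minus the mean of the controls, with group means as lines. The apelin points of miR-106b-5p to miR-93-5p lie above both controls, with means 0.60 apart, and for miR-106a-5p to miR-106b-5p the groups overlap.

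The same data can be read as shares of the 3 counted arms from the MCM7 intron. These are shares of counts and not of what the intron yields, since differences between miRNAs in library preparation were not tested. The 3 hosted members summed to 10311 and 10308 TPM in controls 1 and 2, and to 9828 and 9254 TPM in apelin 1 and 2. The sum was lower in both apelin libraries, since miR-93-5p and miR-25-3p outweigh miR-106b-5p. miR-106b-5p made up 7.77% (95% Wilson interval 7.56 to 7.98) and 9.08% (8.85 to 9.31) of the summed counts in controls 1 and 2, and 10.3% (10.1 to 10.6) and 13.2% (13.0 to 13.5) in apelin 1 and 2. These 4 intervals did not overlap, also between the replicates of a group, so the libraries of a group differed by more than counting error. miR-93-5p made up 54.8% and 53.7% in controls and 52.9% and 47.1% with apelin. miR-25-3p held 37.4% and 37.2% in controls, and 36.8% and 39.7% with apelin, where the groups overlapped. The group differences were 3.37, -4.31 and 0.935 percentage points (exact permutation p = 0.333, 0.333 and 1). Without apelin 2 they were 1.92, -1.41 and -0.509, and without apelin 1 they were 4.82, -7.20 and 2.38.

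**Figure D3:**
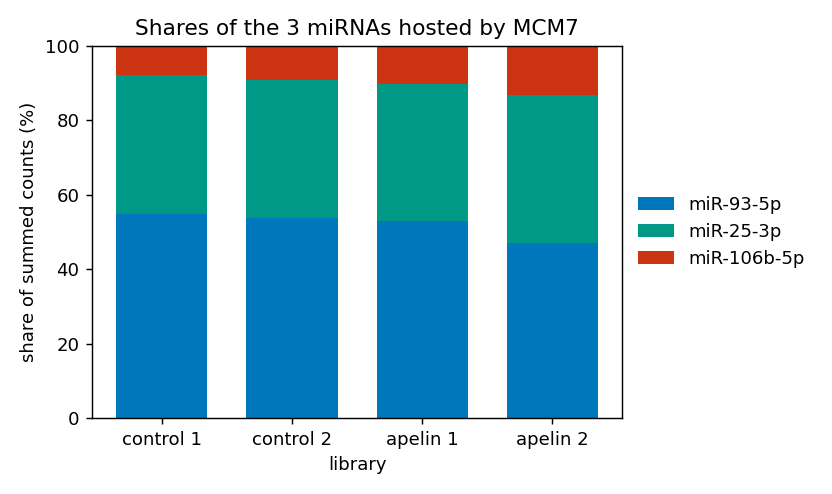
Share in percent of miR-93-5p, miR-25-3p and miR-106b-5p in their summed counts in each library (stacked bars). The part of miR-106b-5p is 7.77% and 9.08% in the controls and 10.3% and 13.2% in the apelin libraries.

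The seed family of miR-106b-5p and miR-93-5p had 5 entries in the table, all tested: these 2, miR-106a-5p, miR-17-5p and miR-20a-5p. None was called by edgeR in either direction. For 4 of the 5 each apelin library exceeded each control (20.9% of all tested entries), and miR-93-5p lay below (17.5%). For miR-106a-5p, 1 of the 4, apelin 2 at 22.6 TPM barely exceeded control 2 at 22.4 TPM, within counting error. The median log2 fold change of the 5 was 0.40, against -0.018 over all tested entries. miR-17-5p, which starts the MIR17HG cluster on chromosome 13, stood at 980 and 1007 TPM in controls and at 1231 and 1320 TPM with apelin (log2 fold change 0.38, SE 0.12, edgeR adjusted p = 0.627). miR-20a-5p of the same cluster had a log2 fold change of 0.44 (SE 0.13). DESeq2 called both (adjusted p = 0.00467 and 0.00151), as it did 20.2% of all tested entries.

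In level miR-106b-5p kept close to these paralogs of another chromosome, at 81.8% and 92.9% of miR-17-5p in controls and 82.6% and 92.9% with apelin. The difference in this log2 ratio between groups was 0.0067, and it ran from -0.086 to 0.099 with a library left out. miR-93-5p, in contrast, was 5.77 and 5.50 times miR-17-5p in controls, and 4.22 and 3.30 times with apelin. miR-93-5p was the main member of the seed family, with 67.6% and 65.8% of its summed TPM in controls, and 60.1% and 53.1% with apelin. The family's sum overlapped between groups, at 8357 and 8421 TPM in controls and 8639 and 8200 TPM with apelin.

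**Figure D4:**
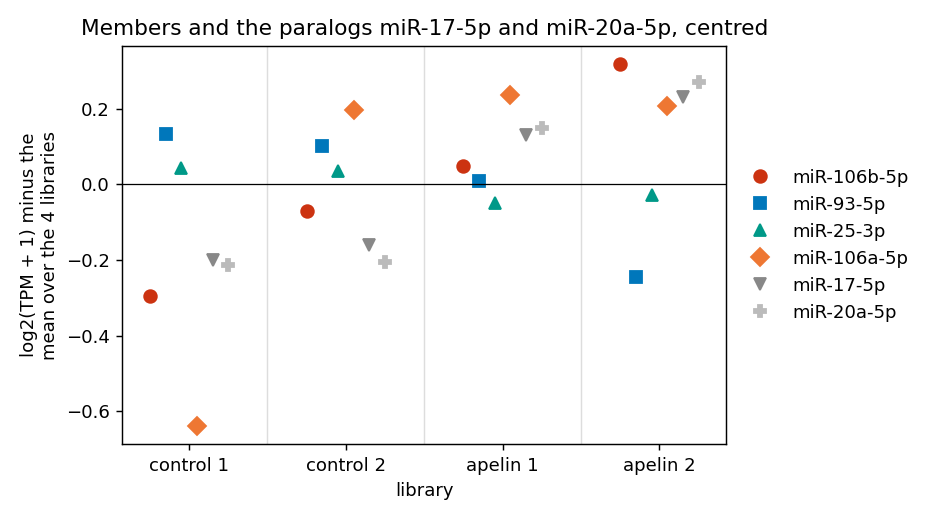
log2(TPM + 1) of the 4 members and of miR-17-5p and miR-20a-5p in each library, minus each miRNA's mean over the libraries (horizontal line at 0). In both apelin libraries miR-106b-5p, miR-17-5p and miR-20a-5p lie above their own controls, and miR-93-5p and miR-25-3p lie below theirs.

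The level of miR-106a-5p was 1.24% and 2.23% of that of miR-17-5p, from which it differs at the first base, in controls 1 and 2, and 1.88% and 1.71% in apelin 1 and 2. The table lists miR-106a-5p at 22 nt, while its RefSeq sequence has 23. How the authors counted reads that fit several members is not stated in the labels or the table, so the low count of miR-106a-5p is uncertain. Of its X-linked cluster 4 entries were in the table. miR-18b-5p, with a hairpin next to MIR106A, had 0 and 3 counts in controls and 0 and 1 with apelin, and was not tested. The entries miR-19b-2-3p (344 TPM in each control, 455 and 574 TPM with apelin) and miR-92a-2-3p share nearly all or all counts with copies named for other hairpins, so they do not show what the X-linked cluster yields. In the MIR17HG cluster 0 of 6 tested entries were called by edgeR, and the median log2 fold change was 0.53 (-0.018 over all tested). In 5 of them TPM was higher in each apelin library than in each control (20.9% of all tested entries). DESeq2 called miR-17-5p, miR-20a-5p, miR-19a-3p (log2 fold change 0.86 in edgeR, DESeq2 adjusted p = 0.000228) and miR-19b-1-3p (0.0169). It did not call miR-18a-5p (0.0839) or miR-92a-1-3p (0.812), and called 20.2% of all tested entries. The MIR17HG entries miR-19b-1-3p and miR-92a-1-3p share most of their counts with miR-19b-2-3p and miR-92a-2-3p. These 2 clusters were listed with earlier results of these data known.

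For miR-25-3p the seed family had 5 entries, of which 3 were distinct: miR-25-3p, miR-92a-3p and miR-92b-3p. None was called by edgeR in either direction, and their log2 fold changes were -0.057, -0.10 and -0.16. miR-92a-3p was by far the highest, with 30391 and 26271 TPM in controls and 30220 and 22119 TPM with apelin, and its groups overlapped. miR-25-3p held 10.8% and 12.3% of the family's summed TPM in controls, and 10.3% and 13.7% with apelin.

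By distance between centred log2(TPM + 1) values over the 4 libraries, the miRNAs nearest to miR-106b-5p among these 207 were miR-22-3p (0.12), miR-148b-3p (0.12) and miR-16-5p (0.14). Its cluster neighbour miR-25-3p was the 86th nearest and miR-93-5p the 144th, with distances of 0.50 and 0.73. The nearest to miR-93-5p were miR-130b-5p (0.054), miR-486-5p (0.058) and miR-320c (0.058). The nearest to miR-25-3p were miR-200b-3p (0.048), miR-183-5p (0.070) and miR-497-5p (0.073), and to miR-106a-5p miR-130a-3p (0.22), miR-301a-5p (0.33) and miR-340-5p (0.34). With 4 libraries such distances describe these libraries only.

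The members also differed in base composition along the same line as in their log2 fold changes. GC made up 42.9% of miR-106b-5p and 43.5% of miR-106a-5p, against 50% of miR-25-3p and 52.2% of miR-93-5p. Over 189 tested catalogue miRNAs with a RefSeq sequence, GC and log2 fold change had a Pearson correlation of -0.28 across miRNAs. The log2 fold changes in this correlation came from the edgeR fit limited to catalogue miRNAs with counts in every library. These miRNAs share the 4 libraries and are not independent replicates. The trend against GC was fitted per library to log2(TPM + 1) minus each miRNA's mean over the 4 libraries. It differed between the apelin libraries. In apelin 2 it fell from 0.263 at 31.8% GC to -0.252 at 63.6% GC. Between the same GC values it rose from -0.027 to 0.137 in apelin 1, and it rose in both controls too. Apelin 2 was also the library farthest from the controls for miR-106b-5p and miR-93-5p. With each library's trend against GC removed, the log2 fold changes were 0.32 for miR-106b-5p, -0.16 for miR-93-5p, -0.022 for miR-25-3p and 0.38 for miR-106a-5p. In that setting, chosen after seeing the data, the log2 ratio of miR-106b-5p to miR-93-5p still differed by 0.48, with each apelin library above each control. For miR-106a-5p to miR-25-3p the groups then overlapped (difference 0.46, exact permutation p = 0.667), so 4 of the 6 ratios did not overlap. The part of base composition in library preparation was not tested.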

How the data were processed

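Small RNA libraries of 2 untreated and 2 apelin-treated PC-3 samples were compared. Per the labels' protocols adaptors were ligated, cDNA was amplified by PCR and products were size-selected on a gel. The submitters' processing notes name Trimmomatic 0.30 for trimming, and DESeq2. The aligner, catalogue and build used were not given in the sources used here. Raw read counts and TPM values per mature miRNA were deposited by the authors. Deposited TPM equalled counts per 1000000 of the library total to within 0.005 in 3 libraries and 0.151 in apelin 2, and TPM was recomputed from the counts.

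edgeR's quasi-likelihood test with TMM scaling was fitted to the 263 entries with a mean of at least 10 TPM, apelin minus control, two-sided. It was adjusted by Benjamini-Hochberg over all 263, with a threshold of 0.05. Each SE is |log2 fold change| divided by the root of edgeR's F. Ratios and shares of members were compared by exact permutation tests. The edgeR test was checked on simulated counts, with planted changes larger than the differences of the members here. That check does not tell its power for such smaller differences. R 4.3.3, edgeR 4.0.16, DESeq2 1.42.0, limma 3.58.1, Python 3.11.15 and scipy 1.17.1 were used.

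The rule for named miRNAs took the members, their opposite arms (not analysed here), entries sharing a seed, both paralog clusters and the 3 nearest miRNAs by distance. Cell type markers came from a separate list. Members and lists were chosen with earlier results of these data known. RefSeq mature sequences were found by name for all 4 members, and for miR-106a-5p the listed length differs. The MIR93 hairpin is named only. Alternatives were other tests, scalings, pseudocounts and filters, a replicate block, leaving out each library and a GC correction added later.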

Additional observations from a re-analysis of the deposited data

How the results depend on the processing

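The fit was repeated under 16 other settings. Directions of the 4 log2 fold changes were the same in all of them, and 0 of these values passed the threshold. miR-106a-5p was not tested at a minimum of 100 TPM. The count of called entries, 0 in edgeR, was 53 with DESeq2, 4, 5 and 4 with limma at pseudocounts of 1, 0.1 and 10, 4 at a minimum of 100 TPM, 52 with no filter and 0 to 19 with a library left out. With a replicate block edgeR called 0 (50 at an unadjusted p under 0.05), with log2 fold changes of 0.39 for miR-106b-5p and -0.21 for miR-93-5p. Replicate numbers are not said to mark a shared culture or day, and across 207 miRNAs the deviations of same-numbered libraries had a correlation of 0.32. With a library left out the log2 fold changes ran from 0.15 to 0.55 for miR-106b-5p, -0.31 to -0.19 for miR-93-5p, -0.17 to -0.019 for miR-25-3p and 0.057 to 0.88 for miR-106a-5p. The log2 ratio of miR-106a-5p to miR-106b-5p turned from 0.10 to between -0.23 and 0.43, and the share of miR-25-3p in the MCM7-hosted sum from 0.935 to between -0.509 and 2.38 percentage points. Fewer samples remain there. Depth limits miR-106a-5p, with 73 to 129 counts.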
